A study of Mus musculus with 16 samples.

Results

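Synaptosomes from the cerebral cortex of 19-month-old C57BL/6 mice were compared with synaptosomes from 5-month-old mice of the same strain, over all genes of the count table. The members were chosen by their labelled fraction and age: 8 of the 16 libraries, 4 of them labelled 19 months SYN and 4 labelled 5 months SYN, where SYN stands for synaptosomes. The series describes 4 biological replicates for each age. The labels name no treatment and no transgene, and give neither the sex of the mice nor whether animals were pooled. Of the other libraries, 4 are synaptosomes at 3 weeks, which entered the fit for its filter on low counts, its scaling and its estimate of the spread but not the contrast, and 4 are total homogenates of 5-month cortex, which were not used in this comparison.

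Synaptosomes are nerve endings that pinch off and reseal when brain tissue is homogenised, often with a piece of postsynaptic membrane attached. They hold mRNAs, ribosomes and mitochondria that serve protein synthesis away from the cell body, and the fraction also carries fragments of glia and free mitochondria. In the ageing cortex, microglia and the complement protein C1q that they make are known for their place at synapses. Total RNA depleted of 18S and 28S rRNA was sequenced from a low input, so the libraries hold mRNAs, long noncoding RNAs and mitochondrial RNAs.

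Total counts ran from 10.6 to 17.1 megacounts (M) in the 8 libraries, and 6.56 to 10.2 M of these lay outside the mitochondrial genome. Synaptic mRNAs were present in all of them: Camk2a, a kinase subunit of dendrites and spines whose mRNA is held locally, had 3525 to 4400.3 CPM at 5 months and 3071 to 3812 CPM at 19 months (CPM, counts brought to 1 common library size with TMM scaling). Snap25, a vesicle fusion protein, had 837 to 1004 CPM at 5 months and 768 to 817 CPM at 19 months. Glial RNA was present too, with 24 astrocyte markers summing to 12911 to 15109.7 CPM at 5 months and 13353 to 14525 CPM at 19 months. The library labelled 19 months SYN replicate 1 had 52.3% of its counts on the 2 mitochondrial rRNAs against 32.9% to 33.6% in the other 3 of its group. It also had 92 counts of Xist, made by an inactive X chromosome, against 1 to 15 in the other 7, while the Y-linked Ddx3y was present in all 8 at 17.3 to 27.0 CPM of the total. The library labelled 5 months SYN replicate 4 had 4177 CPM of the nuclear RNA Malat1 against 812 to 1257 in its group, and choroid plexus and ependymal markers summing to 858 CPM against a lowest sum of 187 in its group. The counts of calls, the called genes and the list medians are therefore also given without these 2 ("without both"). In bulk RNA, fewer cells or fragments of a type cannot be told apart from less RNA in each.

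At 19 months 20 genes were higher and 26 were lower than at 5 months, out of 15344 tested, by edgeR's quasi-likelihood test at a Benjamini-Hochberg adjusted p under 0.05 (0.130% and 0.169% of the genes, 0.300% together). Leaving out genes under 5 CPM, the largest named increases were in Tpt1, the ferritin light chain gene Ftl1 and Tmem35a, and the largest decreases in Med6, Tarsl2 and Zscan18. All 46 genes had no overlap between the 4 libraries of one age and the 4 of the other, as had 505 genes that were higher (3.29%) and 762 that were lower (4.97%) among all genes tested. The called increases lay between 0.43 and 2.26 and the called decreases between 0.39 and 0.91 on the log2 scale, and the median over all genes was 0.00. The largest increase, in the predicted gene Gm16335, is named here only as the end of that range. At an unadjusted p under 0.05, 2103 genes differed (13.7%), 935 higher (6.09%) and 1168 lower (7.61%). Over all genes tested, 49.8% had a log2 fold change above 0. These shares are the background for the counts of list members given below.

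Without both libraries that stand apart, 2 genes were higher and 3 were lower (0.0323% of 15470). Ftl1, Rpph1 and Plec were called both ways, and the mitochondrial mRNAs mt-Nd6 and mt-Co3 were called only there, after a library set apart by its mitochondrial RNA had been left out. The other 43 genes were not called without them, but all 46 kept their sign and had an unadjusted p under 0.05. Adjusted p without both ran from 0.0528 to 0.242 in these 43, by edgeR's quasi-likelihood test. Leaving out any single library also changed the count by over 1.5 times. The calls fell to 0 without 19 months SYN replicate 3 (smallest adjusted p = 0.0518 by edgeR's quasi-likelihood test, with 1673 genes at an unadjusted p under 0.05). They rose to 60 higher and 64 lower without 5 months SYN replicate 2. A fit of only the 8 libraries called 132 higher and 188 lower (2.16%), with all 46 genes among them.

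**Figure D1:**
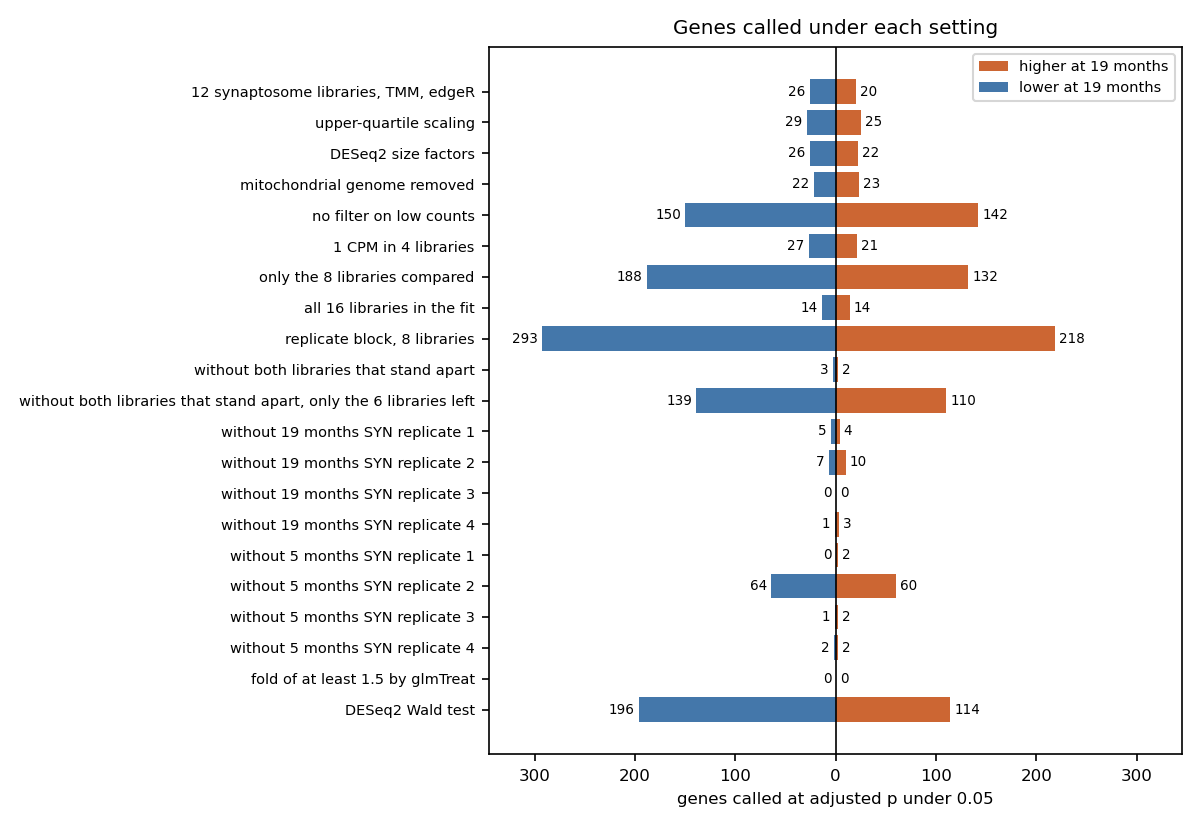
Number of genes called at an adjusted p under 0.05 (x axis, higher to the right, lower to the left) under each setting (y axis). The count of 20 higher and 26 lower genes fell to 0 without 19 months SYN replicate 3 and rose to 132 and 188 when only the 8 libraries compared were fitted.

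Ftl1 encodes the ferritin light chain, a subunit of the shell in which cells store iron. Its RNA is known to carry an iron-responsive element in the 5′ UTR, a hairpin to which iron regulatory proteins bind when iron is low and so hold back translation. The element is shown because Ftl1 had the smallest adjusted p of all genes and because the ferritin heavy chain gene, Fth1, carries a near copy of it. The capitals mark the loop that the proteins recognise, and both are written 5′ to 3′ on the transcript, from GENCODE vM21 transcripts on GRCm38.
Ftl1, chr7:45459778-45459805, minus strand: cttgcttcaaCAGTGTttgaacggaaca
Fth1, chr19:9982734-9982761, plus strand: cctgcttcaaCAGTGCttgaacggaacc
From Ftl1 to Fth1, counted from the first base printed, the substitutions are T2C, T16C and A28C. The pattern CTTCAACAGTGNTTGAACGG, searched on the transcript strand of the first 300 bases, was found in transcripts of 3 of 55341 genes (0.00542%), which are Fth1, Ftl1 and the pseudogene Ftl1-ps1.

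Ftl1 (chr7:45457944-45459884) had 28.3, 28.5, 25 and 15.4 CPM at 5 months and 69.4, 47.6, 57.9 and 43.8 CPM at 19 months, in the order of the replicates. All 4 libraries of 19 months lay above all 4 of 5 months, with the 2 libraries that stand apart at the far ends. The difference was 1.17 ± 0.16 on the log2 scale (SE; adjusted p = 0.00708 by edgeR's quasi-likelihood test), and 0.87 without both (adjusted p = 0.00305). Fth1, chosen for display after its values were seen, had 547, 542, 549 and 530.1 CPM at 5 months and 533, 577, 557 and 502 CPM at 19 months. The 2 ages overlapped for this gene, and its difference had a 95% confidence interval of -0.19 to 0.19 on the log2 scale. Of 16 iron handling genes, all tested, Ftl1 was the only one called, and their median log2 fold change was 0.08 (0.11 without both libraries). Counts of Ftl1 are uncertain to the extent that reads could match its pseudogene copies. The labels of the counts hold the word unique, so such reads may have been left out, which was not tested.

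Genes of protein synthesis were among the higher genes, and Tpt1, a member of none of the gene lists, is given beside them. Tpt1 (chr14:75845093-75848525), the translationally controlled tumour protein, had 2.3, 3.59, 3.18 and 2.13 CPM at 5 months and 9.43, 5.81, 8.52 and 7.33 CPM at 19 months. Its groups did not overlap, at a difference of 1.47 ± 0.25 on the log2 scale (adjusted p = 0.0117 by edgeR, and 1.25 without both). Eef1a1, the elongation factor that brings aminoacyl-tRNA to the ribosome, had 177, 213, 188 and 163 CPM at 5 months and 291, 222, 254 and 253 CPM at 19 months, which is 0.46 ± 0.10 on the log2 scale (0.34 without both). The lowest 19-month library stood just above the highest 5-month library. Rpl32, of the large ribosomal subunit, had 25.7, 33.4, 21.8 and 22.3 CPM at 5 months and 47.1, 36.3, 40.3 and 36.5 CPM at 19 months, and Rps9, of the small subunit, had 54.6, 44.2, 39.7 and 43.4 CPM at 5 months and 76.9, 57.8, 65.7 and 61.4 CPM at 19 months. Both were higher in all 4 libraries of 19 months, by 0.63 ± 0.13 (adjusted p = 0.0247 by edgeR) and 0.52 ± 0.10 (adjusted p = 0.0259) on the log2 scale, and by 0.49 and 0.42 without both. Rps3a3, a gene with the sequence family of Rps3a, rose by 0.70 ± 0.13 on the log2 scale (0.61 without both), with means of 18 ± 3.18 CPM at 5 months and 29.1 ± 2.59 CPM at 19 months (SD, n = 4). Its annotated length of 795 bases fills its whole span, chr13:108670603-108671397, without an intron, so it may itself be a copy. Reads of these genes could match pseudogene copies, and 5 of the 20 higher genes have predicted or pseudogene names. The labels of the counts hold the word unique, so reads matching several copies may have been left out. A count could then rest on the part of a gene that its copies do not share. Which copy the reads came from is uncertain, and the part of such reads in these differences was not tested.

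Over the 78 listed cytosolic ribosomal protein genes, 69 were tested, 2 were called higher and none lower. Their median log2 fold change was 0.25, against 0.00 over all genes, and it was 0.13 without both libraries. In 12 of the 69 the 4 libraries of 19 months all lay above those of 5 months, beside 3.29% of all genes. Their summed level was 1035 to 1285 CPM at 5 months and 1335 to 1469 CPM at 19 months, with the lowest 5-month sum in replicate 4 and the highest 19-month sum in replicate 1. Of 31 translation factor genes, Eef1a1 was the one called by edgeR, with a median of -0.01 (0.03 without both); 4 members were higher and 8 lower without overlap, beside 3.29% and 4.97% of all genes. DESeq2 called Eef1a1 higher and Eef1a2, Eif4g3 and Eif5b lower, and the edgeR fit of 8 libraries called 2 higher and 3 lower. Mitochondrial ribosomal protein genes had 0 called of 74 tested (4 at an unadjusted p under 0.05, 0 by DESeq2) and a median of 0.05 (0.04 without both). DESeq2 called 4 cytosolic ribosomal protein genes, all higher: Rpl32, Rps9, Rps14 and Rps20.

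C1qb, a chain of the C1q molecule that starts the classical complement cascade, had 17, 20.8, 14.8 and 13.5 CPM at 5 months and 37.6, 25.7, 26 and 23.7 CPM at 19 months. The highest value was in 19 months SYN replicate 1, and the other 3 libraries of that age still lay above all of the 5-month libraries. It was higher by 0.77 ± 0.16 on the log2 scale (adjusted p = 0.0279 by edgeR), and by 0.52 without both libraries, where it was not called (adjusted p = 0.22). The other chains overlapped between the ages: C1qa had 11 to 15.8 CPM at 5 months and 14.7 to 24.5 CPM at 19 months and C1qc 10.6 to 19 CPM at 5 months and 16.2 to 26.5 CPM at 19 months, with log2 differences of 0.47 and 0.48 that were not called. These 2 were chosen after their values were seen. Rgs10, a regulator of G-protein signalling that is enriched in microglia, had 30.6, 34.8, 29.8 and 25 CPM at 5 months and 51.1, 48.7, 47.2 and 42.4 CPM at 19 months. Every 19-month library was above every 5-month library, at a difference of 0.66 ± 0.13 on the log2 scale (adjusted p = 0.0222 by edgeR, and 0.54 without both).

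Microglial markers as a list leaned the same way, in the library that stands apart most of all. All 24 were tested and C1qb was the one called by edgeR; DESeq2 called 3 and the fit of 8 libraries 4, all higher. The median log2 fold change was 0.39, but it was 0.21 without both libraries. With all libraries 22 of 24 were above 0, beside 49.8% of all genes. In 5 of 24 the groups did not overlap, all higher, beside 3.29% of all genes. The summed level was 294 to 352 CPM at 5 months and 360.5 to 534 CPM at 19 months, and 19 months SYN replicate 1 held the highest sum, 534 CPM; its part in the result was not tested. Ctss, a lysosomal protease of microglia, had 43 to 57.2 CPM at 5 months and 56.5 to 87.7 CPM at 19 months and was not called (log2 difference 0.48, adjusted p = 0.0798 by edgeR). Its highest value was in 19 months SYN replicate 1, and the log2 difference was 0.28 without both (adjusted p = 0.379 by edgeR).

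Of 20 tested disease-associated microglia genes, which mark the microglial state described around plaques and in aged brain, 0 were called by edgeR. DESeq2 called Igf1. At an unadjusted p under 0.05 there were 6 of the 20, beside 13.7% of all genes. A positive log2 fold change was found in 19, beside 49.8% of all genes, and the median of the 20 was 0.25 (0.29 without both). Igf1, a growth factor, had 5.07 to 8.27 CPM at 5 months and 9.2 to 14.2 CPM at 19 months with no overlap (log2 difference 0.76, adjusted p = 0.0757 by edgeR, and 0.86 without both). Spp1, which encodes osteopontin, had 4.77 to 7.95 CPM at 5 months and 8.19 to 17 CPM at 19 months with no overlap, at an adjusted p of 0.142 by edgeR. Its log2 difference was 0.72, and 0.71 without both. For the complement and MHC class I list, 21 of 26 genes were tested, C1qb was called and the median was 0.07 (0.17 without both). C4b, a complement component known to rise in aged brain, had 23.9, 20.4, 17.9 and 21 CPM at 5 months and 21.1, 26.8, 24.1 and 18.4 CPM at 19 months. Its groups overlapped, the difference was 0.12 ± 0.14 and its 95% interval ran from -0.16 to 0.41 on the log2 scale. B2m, the light chain of MHC class I, had 48.6 to 53.6 CPM at 5 months and 50.1 to 66.9 CPM at 19 months, also with overlap. Interferon response genes had 0 called of 20 tested by edgeR (1 at an unadjusted p under 0.05) and by DESeq2, with a median of 0.11 (0.00 without both).

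The other named genes that rose have varied functions. Tmsb4x, thymosin beta-4, which binds actin monomers, had 67, 87, 74.3 and 65.3 CPM at 5 months and 121, 107, 108 and 101 CPM at 19 months. The groups did not overlap, and the difference was 0.57 ± 0.10 on the log2 scale (adjusted p = 0.0117 by edgeR, and 0.47 without both). Slc38a2, an amino acid transporter, had 34.6 to 44.5 CPM at 5 months and 51.2 to 65.7 CPM at 19 months, a difference of 0.65 ± 0.12 on the log2 scale (0.73 without both). Rpph1, the RNA subunit of ribonuclease P, which trims tRNA precursors, had 662, 807, 622 and 892 CPM at 5 months and 1037, 1185, 1067 and 1062 CPM at 19 months. The lowest 19-month library exceeded the highest at 5 months, which was replicate 4; the difference was 0.54 ± 0.11 on the log2 scale, and 0.67 without both libraries (adjusted p = 0.0248 by edgeR). Tmem35a, a chaperone of nicotinic acetylcholine receptors, had 3.89 to 7.24 CPM at 5 months and 9.59 to 15.3 CPM at 19 months. Lmo2, a LIM-domain transcription cofactor, had 4.94 to 5.32 CPM at 5 months and 7.81 to 10.7 CPM at 19 months. Rasa2, which switches Ras off, had 45.5 to 57.2 CPM at 5 months and 65.1 to 82.6 CPM at 19 months. Rdh10, a retinol dehydrogenase, was called at a low level of 1.03 to 1.5 CPM at 5 months and 2.44 to 3.47 CPM at 19 months and was chosen for display after its values were seen. The log2 differences of Tmem35a, Lmo2, Rasa2 and Rdh10 were 1.08, 0.80, 0.43 and 1.37, and 1.03, 0.73, 0.36 and 1.54 without both.

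**Figure D2:**
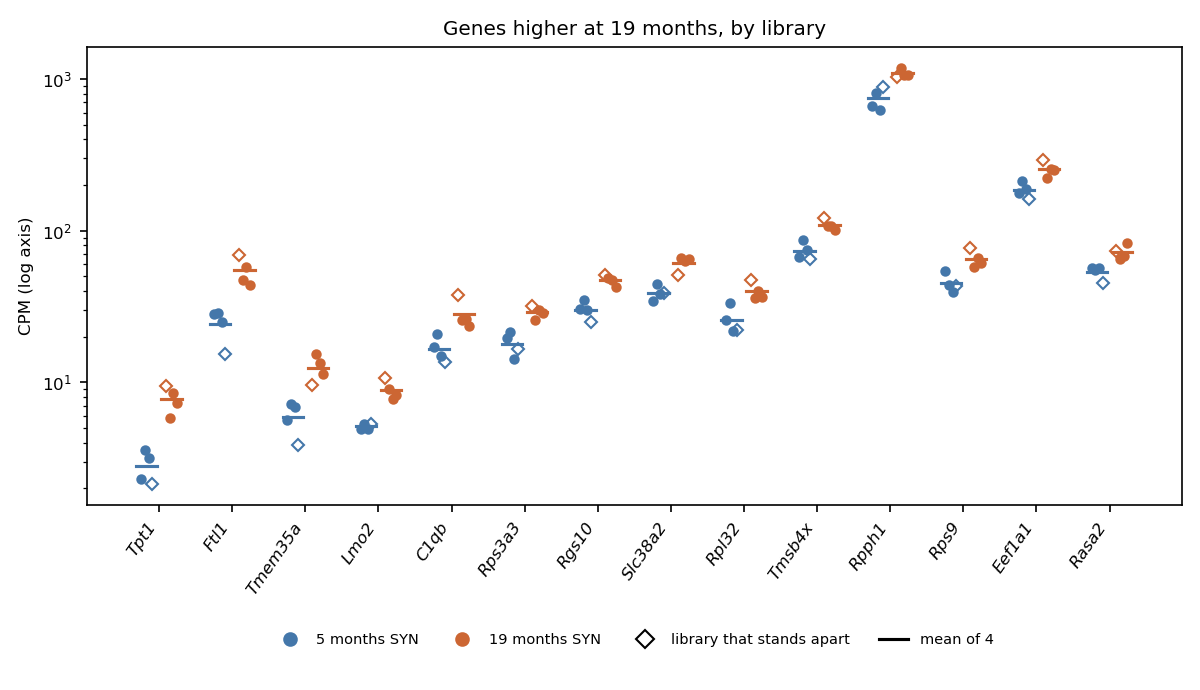
CPM on a log axis (y) of the 14 named genes that were higher at 19 months (x), in each library. Filled circles are libraries, open diamonds the 2 libraries that stand apart and bars the means of 4; in all 14 genes the groups do not overlap.

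Among the lower genes, Plec, Map1b, Map7d1, Map9, Akap5 and Gprasp1 were chosen for display after their values were seen. Plec, which encodes plectin, a linker of intermediate filaments, microtubules and actin, had 678, 677, 679 and 604 CPM at 5 months and 466, 464, 484 and 464 CPM at 19 months. The 2 ages did not overlap, the lowest 5-month value was in replicate 4, and the difference was -0.49 ± 0.08 on the log2 scale (adjusted p = 0.0117 by edgeR). Without both libraries it was -0.52 (adjusted p = 0.0248 by edgeR). Map1b, a microtubule-associated protein of axons and dendrites, had 2731, 2473, 2623 and 2424 CPM at 5 months and 1818, 1968, 2003 and 1971 CPM at 19 months. The groups did not overlap and the gene was lower, at -0.40 ± 0.09 on the log2 scale (adjusted p = 0.0474 by edgeR, and -0.39 without both).

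Map7d1 and Map9, both microtubule-associated, had log2 differences of -0.43 ± 0.10 and -0.43 ± 0.10, and of -0.41 and -0.44 without both. Kif21a, a kinesin motor, had 304, 204, 256 and 263 CPM at 5 months and 171, 188, 173 and 190.5 CPM at 19 months. The highest 5-month value was in replicate 1 and the lowest, in replicate 2, still exceeded all 19-month values, at a difference of -0.51 ± 0.11 on the log2 scale (-0.46 without both). Myh14, a non-muscle myosin heavy chain, had 79.7 to 85.7 CPM at 5 months and 54 to 66.3 CPM at 19 months, and Wdr47, a microtubule-related protein of neurons, 45.4 to 53.5 CPM at 5 months and 27.4 to 37.4 CPM at 19 months. Akap5, which anchors protein kinase A at the postsynaptic density, had 118 to 139.9 CPM at 5 months and 83.6 to 103 CPM at 19 months and was lower, at -0.44 ± 0.09 on the log2 scale (adjusted p = 0.035 by edgeR, and -0.35 without both). Gprasp1, which sorts G-protein-coupled receptors to lysosomes, had 358 to 403 CPM at 5 months and 285 to 304 CPM at 19 months. The log2 differences of Myh14, Wdr47 and Gprasp1 were -0.49, -0.53 and -0.39, and -0.43, -0.39 and -0.40 without both.

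Rbm25, a splicing regulator, had 155, 117, 126 and 152 CPM at 5 months and 78.4, 95.8, 89.7 and 87.9 CPM at 19 months. All 19-month libraries were below 100 CPM and all 5-month libraries above it, a difference of -0.64 ± 0.12 on the log2 scale (adjusted p = 0.0222 by edgeR, and -0.54 without both). Smarca2, an ATPase of the BAF chromatin remodelling complex, had 479, 388, 434 and 418 CPM at 5 months and 285, 312, 311 and 315 CPM at 19 months. Its groups were separated by -0.49 ± 0.09 on the log2 scale (adjusted p = 0.0182 by edgeR, and -0.47 without both). Pnisr, an SR-related protein, had 69.3 to 108 CPM at 5 months and 50.8 to 64.7 CPM at 19 months, with its highest value in 5 months SYN replicate 4. Pqbp1, a polyglutamine-binding protein that takes part in splicing, had 40.0 to 53 CPM at 5 months and 29.1 to 39 CPM at 19 months. Safb, which binds scaffold attachment regions, had 88.9 to 121 CPM at 5 months and 65 to 73.9 CPM at 19 months. The log2 differences of Pnisr, Pqbp1 and Safb were -0.55, -0.53 and -0.52, and -0.39, -0.50 and -0.48 without both. Bclaf1, Akap8l, Gpatch8 and Flywch1, chosen after their values were seen, were lower, at -0.47, -0.48, -0.49 and -0.42 on the log2 scale, and at -0.45, -0.38, -0.41 and -0.37 without both.

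Med6, a subunit of the Mediator complex of RNA polymerase II, had 6.9, 6.79, 8.06 and 8.71 CPM at 5 months and 3.66, 4.81, 4.02 and 3.63 CPM at 19 months. It had the largest decrease, -0.91 ± 0.20 on the log2 scale (adjusted p = 0.0366 by edgeR, and -0.79 without both), from a low level. Zscan18, a zinc finger gene, had 31.8 to 35.8 CPM at 5 months and 18.9 to 23.4 CPM at 19 months, and Tarsl2, a threonyl-tRNA synthetase-like gene, 14.9 to 25.4 CPM at 5 months and 11.4 to 12.3 CPM at 19 months. The log2 differences of Zscan18 and Tarsl2 were -0.68 and -0.68, and -0.63 and -0.51 without both. Sox9, a transcription factor of astrocytes, had 61.3, 71.9, 65.4 and 64.1 CPM at 5 months and 52.5, 45.8, 40.6 and 37.8 CPM at 19 months. It was lower, at -0.57 ± 0.12 on the log2 scale (adjusted p = 0.0279 by edgeR, and -0.67 without both) and was the one called of 24 astrocyte markers by edgeR; DESeq2 also called Cst3 and Slc4a4, 1 of the 3 higher and 2 lower, and the fit of 8 libraries Cst3 and Sox9. Fnbp4, a formin-binding protein, and Tnks1bp1, a tankyrase-binding protein, were lower, at -0.62 and -0.54 on the log2 scale, and at -0.57 and -0.51 without both.

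**Figure D3:**
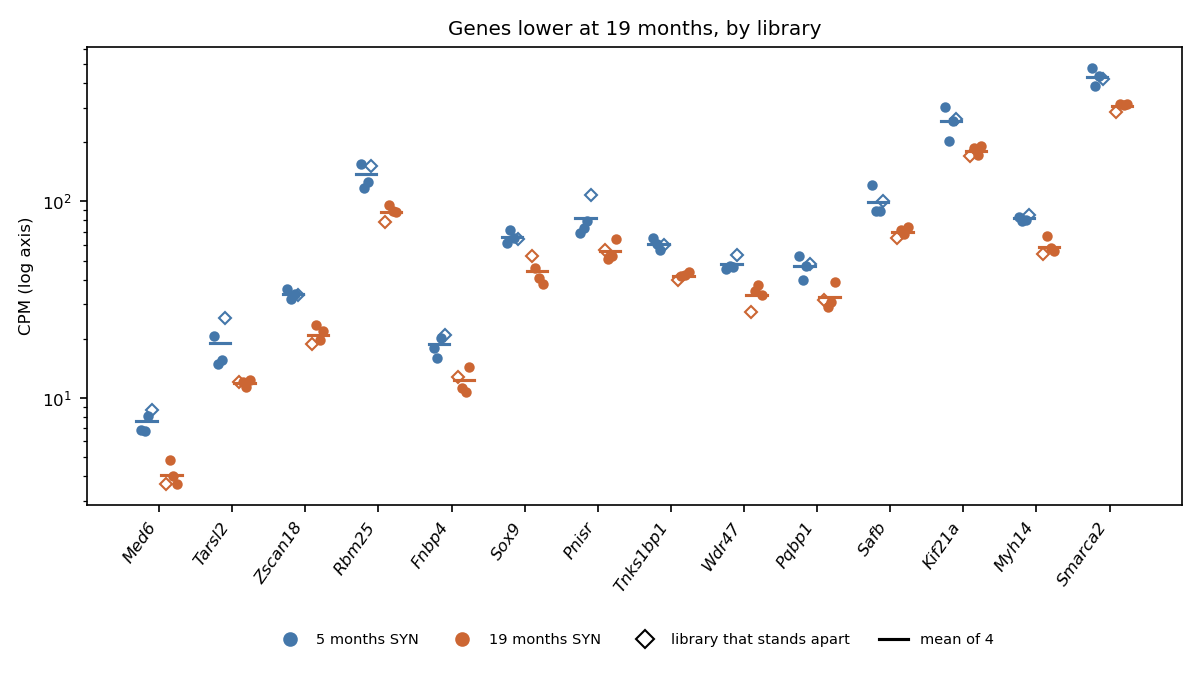
CPM on a log axis (y) of the 14 named genes that were lower at 19 months (x), in each library. Filled circles are libraries, open diamonds the 2 libraries that stand apart and bars the means of 4; in all 14 genes the groups do not overlap.

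The higher and the lower genes differed in length. The 20 higher genes had a median annotated length of 1356 bases and the 26 lower genes one of 6627, against 3892 over all genes tested. Of the higher genes 17 were shorter than that median, and of the lower genes 19 were longer. Across all genes, which are not independent replicates, log2 fold change and length had a Spearman rho of -0.09, and of -0.05 without both libraries. The part of length in the calls was not tested.

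Of 31 postsynaptic density genes, 31 glutamate receptor genes, 20 GABA and glycine receptor genes, 35 presynaptic vesicle and active zone genes, 40 synaptic adhesion genes and 44 voltage-gated channel genes tested, 0 were called in either direction by edgeR. At an unadjusted p under 0.05 these lists had 4, 7, 3, 13, 1 and 2 members, beside 13.7% of all genes. Their median log2 fold changes were -0.10, 0.10, 0.09, -0.05, 0.07 and 0.06, in that order, and -0.08, 0.12, 0.13, -0.06, 0.09 and 0.08 without both. DESeq2's Wald test, an alternative that called 310 genes in all (2.02%), called Cnksr2 of the postsynaptic list and 3 members of the presynaptic list, Cplx2 and Pclo among them, all lower, and 0 members of the other 4. The edgeR fit of 8 libraries called 1 postsynaptic gene lower, 1 glutamate receptor and 2 GABA and glycine receptor genes higher, and 2 presynaptic genes higher and 3 lower.

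In the presynaptic list 8 of 35 members were lower without overlap, beside 4.97% of all genes, and 0 were higher. Pclo, a scaffold of the active zone, had 1742 to 2154 CPM at 5 months and 1298 to 1782 CPM at 19 months, with overlap, and Snap25 had a log2 difference of -0.22 ± 0.09 (adjusted p = 0.253 by edgeR). On the postsynaptic side Cnksr2, a scaffold of Ras signalling, had 607 to 716 CPM at 5 months and 467 to 572 CPM at 19 months with no overlap (adjusted p = 0.0706 by edgeR). Camk2a overlapped between the ages, with a 95% interval of -0.42 to -0.01 on the log2 scale. Among 22 dendritically carried mRNAs Eef1a1 alone was called by edgeR, and the median was -0.13 with and without both libraries. Nrgn, the calmodulin-binding neurogranin, had 247 to 289 CPM at 5 months and 213 to 241 CPM at 19 months with no overlap and was not called (adjusted p = 0.295 by edgeR).

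Receptor genes had medians slightly above 0. Gria4, an AMPA receptor subunit, had 46.7, 55.5, 49.8 and 50.3 CPM at 5 months and 55.9, 78.4, 68 and 60.0 CPM at 19 months, so the groups touched without overlapping (log2 difference 0.38 ± 0.11, adjusted p = 0.12 by edgeR). Grm4, a presynaptic metabotropic glutamate receptor, had 25.2 to 34.2 CPM at 5 months and 33.8 to 40.9 CPM at 19 months. Gabra3, a GABA-A receptor subunit, had 41.9 to 52.4 CPM at 5 months and 48.3 to 60.7 CPM at 19 months, with overlap, and was not called. The clustered protocadherins, adhesion proteins that give neurons a surface identity, had 0 called of 53 tested by edgeR and by DESeq2. At an unadjusted p under 0.05 there were 6 of the 53, beside 13.7% of all genes. Positive log2 fold changes numbered 46, beside 49.8% of all genes, with a median of 0.12 over the 53 (0.23 without both). Pcdha11 had 1.55 to 2.3 CPM at 5 months and 2.68 to 6.88 CPM at 19 months and Pcdhgb4 2.98 to 4.55 CPM at 5 months and 4.89 to 6.76 CPM at 19 months; these family members share constant exons, so their counts are uncertain.

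Of 24 immediate early genes, which neurons switch on with activity, 0 were called by edgeR (10 at an unadjusted p under 0.05, beside 13.7% of all genes, and Egr2 and Nr4a2 lower by DESeq2). Without overlap 4 were lower and 1 was higher, beside 4.97% and 3.29% of all genes, and the median was -0.23 (-0.20 without both). Nr4a2, a nuclear receptor of this group and of deep-layer neurons, had 64.9, 58.7, 62 and 57.2 CPM at 5 months and 39.8, 48.2, 45.5 and 45 CPM at 19 months. The groups did not overlap and the log2 difference was -0.44 ± 0.11 (adjusted p = 0.0619 by edgeR). Nptx2, a secreted pentraxin of excitatory synapses, pointed the other way, with 23.1 to 26.1 CPM at 5 months and 25.8 to 37.3 CPM at 19 months and overlap. The 16 excitatory neuron and layer markers had a median of -0.15 (-0.15 without both), with 6 lower without overlap, beside 4.97% of all genes, and 0 called by edgeR (5 at an unadjusted p under 0.05, and Neurod2, Neurod6 and Nr4a2 lower by DESeq2). The 20 interneuron and neuropeptide genes had a median of 0.20 (0.20 without both), with 4 higher without overlap, beside 3.29% of all genes, and 0 called by edgeR (4 at an unadjusted p under 0.05, and Crh by DESeq2). Crh, corticotropin-releasing hormone, had 3.52 to 6.43 CPM at 5 months and 7.17 to 11.1 CPM at 19 months. Acan, the core proteoglycan of perineuronal nets, had 4.46 to 7.11 CPM at 5 months and 7.87 to 10.9 CPM at 19 months. Neither was called (adjusted p = 0.101 and 0.0682 by edgeR). The log2 differences of Crh and Acan were 0.80 and 0.74, and 0.91 and 0.72 without both.

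**Figure D4:**
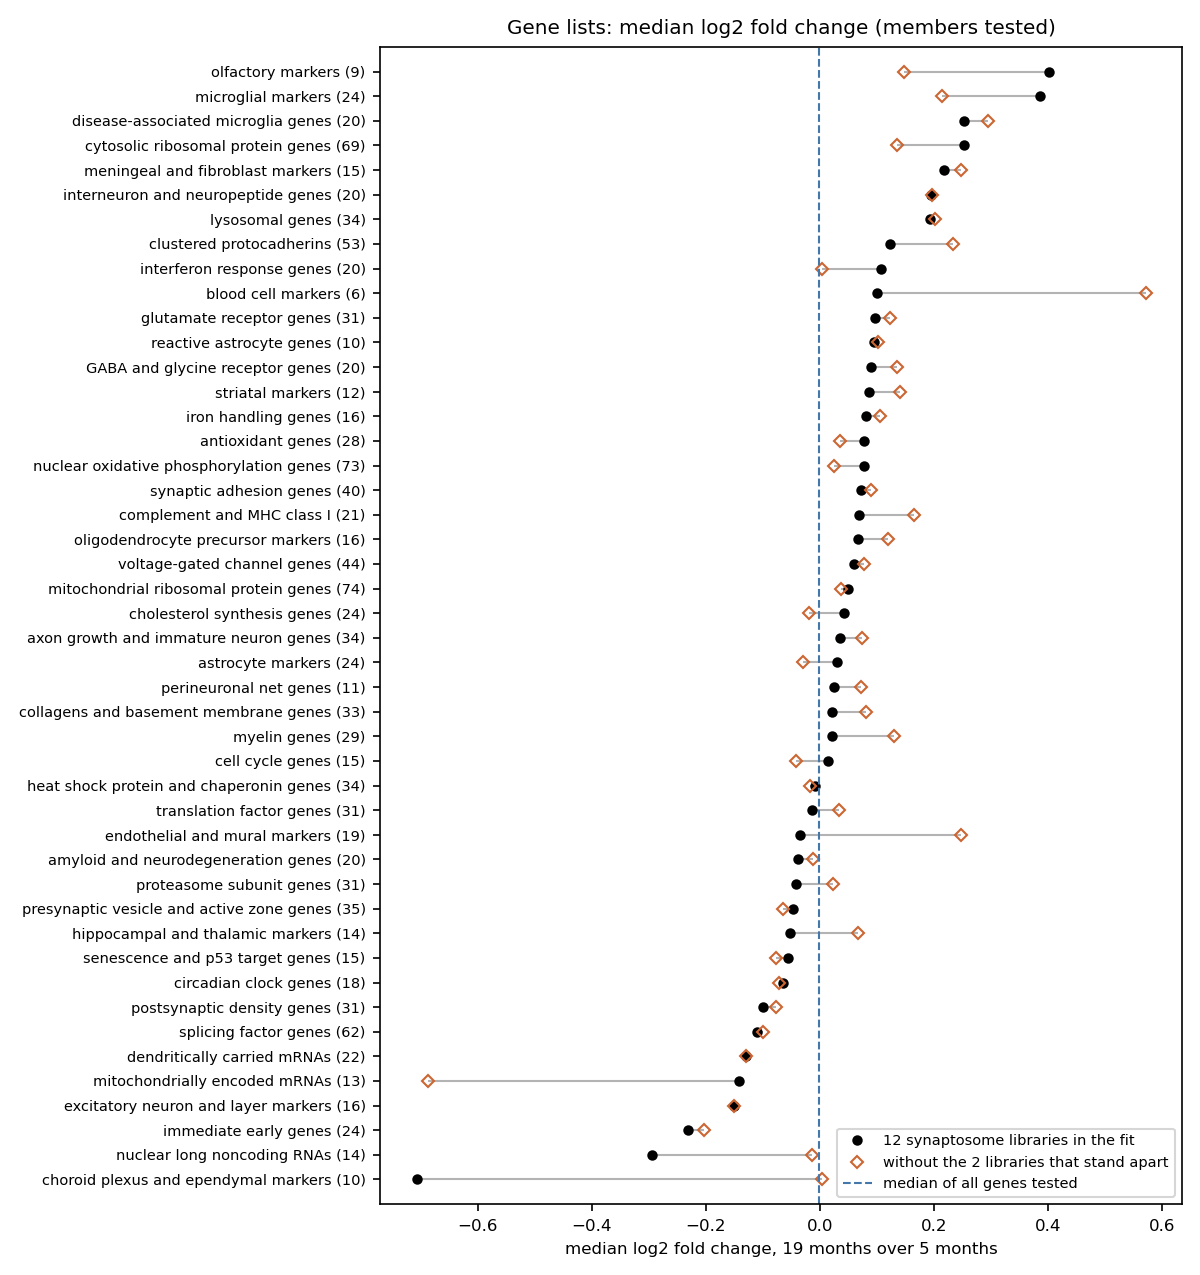
Median log2 fold change, 19 months over 5 months (x axis), of the tested members of each of 46 gene lists (y axis, members tested in brackets). Filled circles are from all libraries and open diamonds without the 2 that stand apart; mitochondrially encoded mRNAs moved from -0.14 to -0.69 and choroid plexus and ependymal markers from -0.71 to 0.00.

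The mitochondrial share of the RNA varied widely between libraries of 1 age. The 2 mitochondrial rRNAs took 39.3% ± 4.24 of counts at 5 months and 37.9% ± 9.58 at 19 months (SD, n = 4). At 5 months the highest share, 45.3%, was in replicate 1, against 36.1% to 39.2% in the rest of its group. That library was kept in the fits without both. The difference of -1.39 percentage points had p = 0.829 by a two-sided exact permutation test over 70 assignments. Without both libraries it was -7.25 points, a description only, since 19 months SYN replicate 1 was set apart by this share. The 13 mitochondrially encoded mRNAs, which encode core subunits of the respiratory chain, summed to 36013 to 58146 CPM at 5 months and 26519 to 66378 CPM at 19 months, the highest sum being in 19 months SYN replicate 1. With all libraries 0 were called by edgeR (1 at an unadjusted p under 0.05) and by DESeq2, at a median log2 fold change of -0.14. Without both, the median was -0.69 and 2 were called lower, which likewise follows the removal of a library set apart by its mitochondrial RNA and supports nothing by itself.

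The 2 were mt-Co3, a subunit of cytochrome oxidase, and mt-Nd6, a subunit of complex I encoded on the other strand from most mitochondrial genes. mt-Co3 had 561, 343, 297 and 293 CPM at 5 months and 380.1, 209, 193 and 198 CPM at 19 months. The 19-month values were all below the 5-month ones except replicate 1, and the log2 difference was -0.61 with all libraries (adjusted p = 0.365 by edgeR) and -0.99 without both. mt-Nd6 had 774, 573, 585 and 582 CPM at 5 months and 683, 414, 382 and 352 CPM at 19 months, with -0.46 and -0.74 on the log2 scale. Of the nuclear genes for the respiratory chain, 0 of 73 tested were called by edgeR, and DESeq2 called Cox7a2, Ndufa3 and Ndufa12 higher. At an unadjusted p under 0.05 there were 12 of the 73, beside 13.7% of all genes. The median of the 73 was 0.08 (0.02 without both), and the difference between the 2 lists was not tested. Cox7a2, a small cytochrome oxidase subunit, had 9.2 to 12.7 CPM at 5 months and 13.2 to 19.5 CPM at 19 months with no overlap, and Ndufa3, of complex I, 9.82 to 14.7 CPM at 5 months and 13.1 to 20.5 CPM at 19 months, with overlap. The log2 differences of Cox7a2 and Ndufa3 were 0.59 and 0.56, and 0.53 and 0.51 without both.

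Of 62 splicing factor genes 16 were lower without overlap, beside 4.97% of all genes, and 1 was higher without overlap, beside 3.29%. Rbm25 was the one called by edgeR, and DESeq2 called 6 members lower and 1 higher. Their median was -0.11, and -0.10 without both libraries. The summed level was 4373 to 4624 CPM at 5 months and 3954 to 4113 CPM at 19 months, so the ages did not overlap in the sum and the 2 libraries that stand apart lay within their groups' ranges. The 14 tested noncoding RNAs of the nucleus had a median of -0.29, and -0.01 without both; Malat1 alone had 812 to 4177 CPM at 5 months and 874 to 1439.6 CPM at 19 months. Gas5, a noncoding host gene of small nucleolar RNAs, had 46.7, 46.1, 42.3 and 36.7 CPM at 5 months and 56.5, 52.7, 64.3 and 59.3 CPM at 19 months. Its groups were apart by 0.44 ± 0.10 on the log2 scale, and it just missed the threshold (adjusted p = 0.0516 by edgeR).

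Among degradation and folding lists, lysosomal genes had 0 called of 34 by edgeR, and DESeq2 called Ctss. At an unadjusted p under 0.05 there were 10 of the 34, beside 13.7% of all genes. The lysosomal genes had 28 positive log2 fold changes, beside 49.8% of all genes, and a median of 0.19 (0.20 without both). They summed to 1438 to 1687 CPM at 5 months and 1726 to 1907 CPM at 19 months, with no overlap. Heat shock protein and chaperonin genes summed to 3198 to 3610.1 CPM at 5 months and 2901 to 3193 CPM at 19 months, without overlap. A large part of that sum came from Hsp90ab1, with means of 1445 CPM at 5 months and 1102 CPM at 19 months. The sum therefore does not describe the list. Of 34 tested, 15 were positive, beside 49.8% of all genes, with a median of -0.01 (-0.02 without both). By edgeR 0 were called, with 5 at an unadjusted p under 0.05, beside 13.7% of all genes. Hsp90ab1, a cytosolic HSP90 chaperone, had 1552, 1295, 1483 and 1451 CPM at 5 months and 1021, 1118, 1095 and 1175 CPM at 19 months. It was apart between the ages by -0.39 ± 0.10 on the log2 scale without being called (adjusted p = 0.0757 by edgeR; DESeq2 called it lower and Hspa5 higher). Hspa5, the chaperone of the endoplasmic reticulum, had 166 to 194 CPM at 5 months and 193 to 274 CPM at 19 months, with the lowest 19-month value in replicate 1. Proteasome subunit genes had 0 called of 31 and antioxidant genes 0 of 28 by edgeR, with 1 and 2 called higher by DESeq2. Each list had 5 members at an unadjusted p under 0.05, beside 13.7% of all genes. Their medians were -0.04 (0.02 without both) and 0.08 (0.03 without both). Mt3, a brain metallothionein, had 31.8 to 44.1 CPM at 5 months and 47.4 to 51.8 CPM at 19 months with no overlap (adjusted p = 0.0836 by edgeR). Its log2 difference was 0.42, and 0.34 without both.

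In the glial and vascular lists other than microglia, edgeR called no gene apart from Sox9; DESeq2 and the fit of 8 libraries called others, named with their lists. Gfap, the intermediate filament protein of astrocytes, had 223, 214, 219 and 211 CPM at 5 months and 230.1, 246, 234 and 209 CPM at 19 months, with overlap and a 95% interval of -0.09 to 0.26 on the log2 scale. Reactive astrocyte genes had 0 called of 10 tested of 20 listed, with 0 at an unadjusted p under 0.05 and 0 by DESeq2. Myelin genes had 0 called of 29 by edgeR (4 at an unadjusted p under 0.05) and by DESeq2, and Cldn11 and Ugt8a higher in the fit of 8 libraries, with a median of 0.02 (0.13 without both); Ugt8a, which makes the myelin lipid galactosylceramide, had 14 to 20.7 CPM at 5 months and 22.9 to 29.6 CPM at 19 months with no overlap. Oligodendrocyte precursor markers had 0 called of 16 by both (4 at an unadjusted p under 0.05 in edgeR), with Olig1 at 20.4 to 22.7 CPM at 5 months and 23 to 29.7 CPM at 19 months and Sox10 at 21.1 to 23.3 CPM at 5 months and 13.8 to 21.5 CPM at 19 months. Choroid plexus and ependymal markers had a median of -0.71 with all libraries and of 0.00 without both. Kl, of the choroid plexus, and Flt1, of endothelium, were highest in 5 months SYN replicate 4, at 29.2 and 15.7 CPM. Cdkn1a, a cell cycle inhibitor used as a senescence marker, had 0.989 to 3.68 CPM at 5 months and 3.00 to 4.27 CPM at 19 months, and senescence and p53 target genes had 0 called of 15 by edgeR (3 at an unadjusted p under 0.05) and by DESeq2. Mapt, which encodes tau, had 191 to 216 CPM at 5 months and 166 to 177 CPM at 19 months with no overlap and was not called (adjusted p = 0.128 by edgeR), and amyloid and neurodegeneration genes had 0 called of 20 (1 at an unadjusted p under 0.05, and Mapt lower by DESeq2). The axon growth, cell cycle, cholesterol, collagen, perineuronal net, circadian, striatal, hippocampal and thalamic, olfactory, meningeal, endothelial and blood lists had 0 called by edgeR and 0 to 4 members each at an unadjusted p under 0.05; DESeq2 called Stmn1 lower and Acan higher among them.

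Changes in splicing with age were deposited by the authors as 2 tables, one from LeafCutter, which groups introns that share an end into clusters and tests their relative usage, and one from DIEGO, which tests single junctions within genes. In the authors' deposited table from LeafCutter, 31 of 4037 clusters tested had an adjusted p under 0.05 (0.768%). These named 29 genes, 2 clusters being in Kmt2c and 1, on the mitochondrial genome, having no gene name. None of the 29 genes was called at the gene level, where 0.300% of all genes tested were called, so this count is near the share of all genes. The largest change in usage within a cluster was at least 10 percentage points in 22 of the 31. The authors' deposited table from DIEGO had 0 of 89750 junctions at a q under 0.05; 656 junctions tied at its smallest p, 0.0209, with q = 0.0700, a floor that limits how small a q could be, and 1144 junctions (1.27%) had an unadjusted p under 0.05. These tables give no value per library, so the spread, the depth and the effect of the 2 libraries that stand apart on the splicing results cannot be shown.

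The called clusters held 29 patterns in which an intron skips over a stretch that other introns flank, and in 19 of them that stretch is an exon annotated in GENCODE. Skipping is given below as the usage of the skipping intron in percent of all intron usage in its cluster. It is not the percent of transcripts that skip the exon. The exons of at most 54 bases that are wholly coding and whose skipping moved by at least 5 points, a choice made after the values were seen, are printed because such short exons add or remove a few residues. Each line gives the exon in capitals between the last and first 10 bases of the neighbouring exons, 5′ to 3′ in a spliced transcript of that gene, from GENCODE vM21 on GRCm38, with the exon's position.
Mef2a, chr7:67244521-67244544, minus strand: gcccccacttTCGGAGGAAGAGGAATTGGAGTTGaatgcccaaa
Cltb, chr13:54597026-54597079, minus strand: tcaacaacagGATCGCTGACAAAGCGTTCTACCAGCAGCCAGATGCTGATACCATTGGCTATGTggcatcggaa
Nfasc, chr1:132627872-132627922, minus strand: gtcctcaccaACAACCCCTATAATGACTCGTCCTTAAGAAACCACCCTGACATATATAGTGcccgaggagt
Map2k4, chr11:65775733-65775765, minus strand: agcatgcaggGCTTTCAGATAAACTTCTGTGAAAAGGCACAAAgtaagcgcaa
Togaram1, chr12:64970226-64970255, plus strand: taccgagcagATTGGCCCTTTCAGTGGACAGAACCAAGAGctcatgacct
Tenm3, chr8:48287133-48287153, minus strand: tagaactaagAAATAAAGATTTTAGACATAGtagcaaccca
All 6 exons have a length that is a multiple of 3, so their loss keeps the reading frame.

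Mef2a encodes a transcription factor that neurons use in activity-dependent gene regulation, and the 24-base exon is the short alternative exon known as its beta exon. The intron that skips this exon went from 1.04% of its cluster at 5 months to 19.9% at 19 months in the authors' deposited table (adjusted p = 0.0145, LeafCutter). Cltb encodes a clathrin light chain, a coat protein of endocytic vesicles, and its 54-base exon is the neuronal one. Skipping of it rose by 9.90 points to 25.9% in the authors' deposited table (adjusted p = 0.0185, LeafCutter). Both exons were skipped more at 19 months.

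The other 4 short exons were skipped less at 19 months. For Nfasc, which encodes the axonal adhesion protein neurofascin, the authors' deposited table gave skipping of 97.4% at 5 months and 77.4% at 19 months for the 51-base exon (adjusted p = 0.0393, LeafCutter). For Map2k4, a kinase that activates JNK, the intron that skips the 33-base exon went from 36.6% to 25.8% of its cluster in the authors' deposited table (adjusted p = 0.0381, LeafCutter). Tenm3 encodes a teneurin, an adhesion protein of synaptic partners. The intron that skips its 21-base exon went from 9.16% to 1.89% of its cluster in the authors' deposited table (adjusted p = 0.0468, LeafCutter). For Togaram1, a microtubule-binding protein of cilia, skipping of the 30-base exon went from 96.2% to 59.4% in the authors' deposited table (adjusted p = 0.0400, LeafCutter). That exon belongs to a transcript that GENCODE marks for nonsense-mediated decay.

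Longer exons moved as well. Skipping of an 86-base exon of Ccp110, which encodes a centriole protein, went from 46.9% to 10.1% in the authors' deposited table (adjusted p = 0.0185, LeafCutter). For Kmt2c, a histone methyltransferase, the intron that skips a 120-base exon went from 30.2% to 1.28% of its cluster in the authors' deposited table. For Mark2, a microtubule-affinity-regulating kinase, the intron that skips a 162-base exon went from 61.5% to 39.0% of its cluster in the authors' deposited table. Unc79, a subunit of the sodium leak channel complex, had skipping of a 150-base exon at 0.71% and then 8.89% in the authors' deposited table.

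Further genes among those with the smallest adjusted p changed in other ways. In Sh3glb1, which encodes the membrane-bending protein endophilin B1, the intron that joins the flanking exons went from 67.0% to 96.1% of its cluster in the authors' deposited table (adjusted p = 0.0185, LeafCutter). In Dhx30, an RNA helicase, 1 intron went from 8.03% to 22.1% in the authors' deposited table (adjusted p = 0.0290, LeafCutter). In Ube2w, a ubiquitin-conjugating enzyme, the main intron fell by 6.11 points to 93.9% in the authors' deposited table at the same adjusted p. The smallest adjusted p in the authors' deposited table, 0.00776 from LeafCutter, belonged to the cluster of 23 introns on the mitochondrial genome, whose RNAs are not spliced by the nuclear machinery.

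Genes of the synaptic lists also held called clusters. Begain is in the postsynaptic density list, Syt11 in the presynaptic list, Tenm3 in the adhesion list and Kcnh7 in the channel list, while Qk and Mbnl1 are in the splicing factor list. The largest changes were small in Begain (-2.76 points), Syt11 (-3.77 points) and Kcnh7 (4.28 points), in the authors' deposited table from LeafCutter. Mbnl1 and Qk, both regulators of alternative splicing themselves, had changes of 15.4 and -7.16 points in the authors' deposited table from LeafCutter. The 2 methods can be set side by side on the same introns. Of the introns in called LeafCutter clusters, 70 also had a DIEGO value, and 5 of these had an unadjusted DIEGO p under 0.05 in the authors' deposited tables, beside 1.27% of all junctions. Both methods compared the same ages of synaptosomes, and these introns were picked by LeafCutter, so this share gives no independent support. For the Tenm3 intron that skips the 21-base exon the authors' deposited table from DIEGO gave q = 0.0700, the smallest value, which 656 junctions share. The introns that skip the short exons of Cltb, Nfasc, Map2k4 and Togaram1 had no unadjusted DIEGO p under 0.05. That of Mef2a had no DIEGO value.

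**Figure D5:**
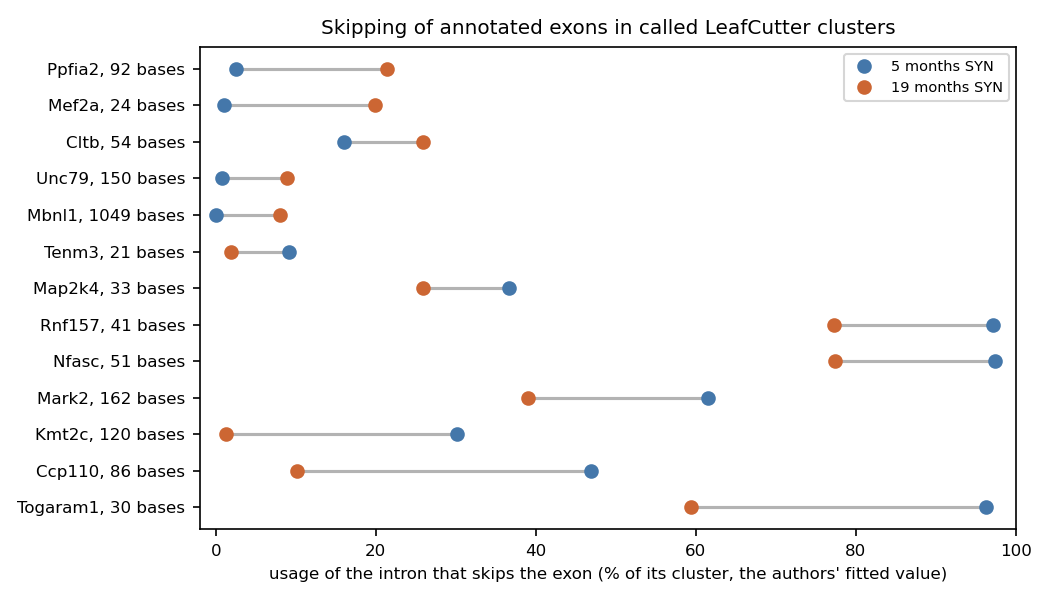
Usage of the intron that skips an annotated exon, in percent of its LeafCutter cluster at 5 and at 19 months (x axis), for exons whose skipping moved by at least 5 points (y axis, gene and exon length). The points are the authors' group values with no error; the widest span is Togaram1, from 96.2% to 59.4%.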

How the data were processed

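The authors deposited integer counts per gene. The submitters' processing notes name, in no stated order, cutadapt 1.18, Trimmomatic 0.38, bcl2fastq 2.20.0.422, the featureCounts program and build GRCm38.p6. Which aligner, strand setting and annotation were used is not given in the sources used here. The authors' LeafCutter tables hold p-values and usage fractions per intron, and the authors' DIEGO table a p-value, q-value and score per junction, per the file headers; the score's sign and log base are not given.

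Groups followed the labels. Genes were filtered with filterByExpr, TMM-scaled and then tested in edgeR 4.0.16 (R 4.3.3, limma 3.58.1, robust quasi-likelihood F test) on the 12 SYN libraries, contrast 19 months minus 5 months, with Benjamini-Hochberg adjustment over 15344 of 48709 genes. A gene was called at an adjusted p under 0.05. Log2 fold changes and SE come from the fit, CPM from TMM-scaled counts. DESeq2 1.42.0 was an alternative. GENCODE vM21 gave names and sequences, and Python 3.11.15 read the splicing tables. The count test was checked on simulated data.

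Genes were named by rule. Of the called genes above a mean of 5 CPM whose groups do not overlap, the 14 highest and the 14 lowest fold changes were taken. Predicted genes and pseudogenes were left out of these by their names only. Added to them were up to 4 called or 2 uncalled members of each list by p, 10 genes always considered, and 8 genes per splicing table. The text gives a choice of these. The comparison, its 46 lists and the libraries left out were chosen with earlier results of these data known.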

Additional observations from a re-analysis of the deposited data

Results flagged for a closer look

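For 78 genes and 3 library measures, the 4 libraries of each age were searched for a value far from the other 3, by Dixon's criterion. Of 162 groups 14 had one; chance gives about 1 in 20. Among these, 4 lay in 19 months SYN replicate 1 and 4 in 5 months SYN replicate 4.

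In 19 months SYN replicate 1 the mitochondrial rRNA share was 52.3% against 32.9% to 33.6%, and mt-Co3 was 380 CPM against 193 to 209. Smarca2 was lowest there at 285 CPM against 311 to 315, and Acan lowest at 7.87 CPM against 10.4 to 10.9. In 5 months SYN replicate 4 Malat1 was 4180 CPM against 812 to 1260, Kl 29.2 CPM against 9.26 to 11.3, Pclo lowest at 1740 CPM against 2120 to 2150, and Plec lowest at 604 CPM against 677 to 679. For Plec this library lay on the side of the 19-month values.

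The others lay in libraries that were not left out in the fits without both. Plec was 484 CPM in 19 months SYN replicate 3 against 464 to 466. Nrgn was 289 CPM and mt-Nd6 774 CPM in 5 months SYN replicate 1, against 247 to 252 and 573 to 585. Gabra3 was 52.4 CPM in 5 months SYN replicate 2 against 41.9 to 43.7. In 19 months SYN replicate 2, Ndufa3 was 13.1 CPM against 19.3 to 20.5, and Mt3 47.4 CPM against 51.2 to 51.8.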

How the results depend on the processing

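Counts of genes called higher and lower depended on the libraries and on the fit, not on the scaling: upper-quartile scaling gave 25 and 29, DESeq2 size factors 22 and 26, and removal of mitochondrial genes 23 and 22. With no filter on low counts they were 142 and 150, and with only the 8 libraries 132 and 188. All 16 libraries gave 14 and 14, with 27 of the 46 genes called. The DESeq2 Wald test gave 114 and 196, with 44 of the 46 genes called and 4760 adjusted p undefined. An adjusted p under 0.01 left 1 and 0, and edgeR's glmTreat at a fold of at least 1.5 left 0 and 0 (smallest adjusted p = 0.712, 174 genes at an unadjusted p under 0.05). Without both libraries that stand apart 2 and 3 genes remained, but 110 and 139 when only the 6 libraries left were fitted, a setting chosen after seeing the data. Leaving out 1 library gave 0 to 60 higher and 0 to 64 lower: 4 and 5, 10 and 7, 0 and 0, and 3 and 1 without 19 months SYN replicates 1 to 4, and 2 and 0, 60 and 64, 2 and 1, and 2 and 2 without 5 months SYN replicates 1 to 4. The 46 genes kept their sign in all of these. The mitochondrial rRNA difference ran from -6.17 to 0.62 points with 1 library left out. An adjusted p under 0.01 left 1 LeafCutter cluster, and an unadjusted p under 0.05 gave 1144 DIEGO junctions. The causes were not tested.

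The labels do not say whether equal replicate numbers share a batch, and the libraries were treated as unpaired. Same-numbered libraries of the 2 ages correlated at 0.01, 0.01, 0.03 and -0.01 after group means were removed, none over 0.1. Such correlations cannot decide whether preparation or sequencing was shared. With the replicate number as a block, the fit of 8 libraries called 218 higher and 293 lower, against 132 and 188 without it. The reason was not tested.

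Near-identical gene copies share sequence, and the strand setting is unknown. The labels of the counts hold the word unique, but how reads matching several copies were handled is not given. The splicing tables carry no depth.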

Other observations

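The 3-week synaptosomes, which share the scaling but are no part of the comparison, add another level for some of the genes described. They were set beside the others without a test, since any contrast with 5 months would use the same 5-month libraries. Ftl1 had 45.6 to 53.5 CPM at 3 weeks, a range that overlaps that of 19 months and lies above that of 5 months. Eef1a1 had 216 to 256 CPM and Tmsb4x 99 to 122 CPM at 3 weeks, both overlapping 19 months. C1qb had 10.0 to 15.4 CPM and Rgs10 21.6 to 34 CPM at 3 weeks, both below all 19-month libraries. Rasa2, at 39.6 to 40.7 CPM, was below all libraries of both later ages.

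Among the lower genes, Plec had 299.7 to 349.7 CPM and Myh14 30.8 to 46.4 CPM at 3 weeks, below both later ages. Map1b, a protein of growing axons, had 2930.2 to 3636 CPM at 3 weeks, above both later ages, so its levels were ordered by age without overlap. C4b had 5.6 to 7.58 CPM at 3 weeks, below both later ages, whose ranges overlapped each other. These genes were chosen after their values were seen.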
